A study of Mus musculus with 4 samples.

Results

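The genes described here encode the proteins that splice messenger RNA and the RNA-binding proteins that steer splicing. They were taken by symbol, as protein-coding genes of the Srsf, Hnrnp, Snrp, Sf3a and Sf3b (together Sf3) and numbered Rbm families. The families themselves were chosen with occupancy results of these data known. There were 91 such genes among 21887 protein-coding genes on mouse chromosomes 1 to 19, X and Y, made up of 11 Srsf, 21 Hnrnp, 12 Snrp, 9 Sf3 and 38 Rbm genes. The values were the positions of binding sites (peaks) of FOXL2, a forkhead transcription factor of the granulosa lineage, the somatic supporting cells of the ovary. They came from ChIP-seq of ovaries of CD1 embryos at E14.5, labelled XX gonads, with 2 FOXL2 ChIP samples and 2 inputs without antibody. No mutation or treatment is labelled for any sample. The ovaries were pooled whole after removal of the mesonephros, and the fetal ovary holds germ cells and stroma beside the granulosa lineage.

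A list of 11438 peaks, each 300 bp wide, covered both ChIP samples. It holds no score, read count or value per sample. The depth is therefore unknown, no peak has a replicate error, and no test between conditions could be made. Peak positions do not measure expression, so the labelled tissue could not be checked by markers. The intervals given below are exact 95% binomial intervals of shares of genes, which treat genes as independent draws and do not measure the spread between pools of ovaries.

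Splicing removes introns from a primary transcript in a large machine, the spliceosome, built on small nuclear RNAs. SR proteins (Srsf genes) bind exons and favour their use, and many heterogeneous nuclear ribonucleoproteins (Hnrnp genes) bind the same transcripts and favour skipping. The Snrp genes encode the ring of Sm proteins around the small nuclear RNAs and proteins particular to the U1 and U2 particles. The Sf3 genes encode the SF3a and SF3b complexes that hold U2 at the branch point. Rbm is a naming class rather than a protein family, and holds spliceosome components, splicing regulators, RNA decay and methylation adaptors and tissue-restricted proteins.

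The letters before some of the starts are given here, with and without a peak over them. Sequences are from RefSeq on GRCm38.p6, the assembly called mm10, and each is the 150 bases just before a transcription start listed there, written 5′ to 3′ on the gene's strand. Srsf3, Hnrnpab, Snrpb2, Rbm42 and Rbm46 are shown because their peaks reached into these bases, and Sf3a3 and Snrpg because no peak lay at their starts. Capitals mark the searched motifs that occurred in the stretches shown, which were the GC box GGGCGG, the inverted CCAAT box ATTGG and the ETS core ACTTCCGG, each on either strand.
Srsf3, chr17:29032510-29032659, + strand: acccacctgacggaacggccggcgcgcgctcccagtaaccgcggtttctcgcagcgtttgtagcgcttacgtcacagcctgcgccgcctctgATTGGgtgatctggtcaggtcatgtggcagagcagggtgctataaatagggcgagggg
Hnrnpab, chr11:51606882-51607031, - strand: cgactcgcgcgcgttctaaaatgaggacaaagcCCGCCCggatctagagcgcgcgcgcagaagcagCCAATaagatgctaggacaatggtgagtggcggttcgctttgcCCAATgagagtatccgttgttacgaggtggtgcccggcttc
Snrpb2, chr2:143062919-143063068, + strand: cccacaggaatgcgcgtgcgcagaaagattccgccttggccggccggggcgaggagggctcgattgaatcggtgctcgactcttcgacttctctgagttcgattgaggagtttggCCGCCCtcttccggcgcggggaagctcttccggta
Rbm42, chr7:30650229-30650378, - strand: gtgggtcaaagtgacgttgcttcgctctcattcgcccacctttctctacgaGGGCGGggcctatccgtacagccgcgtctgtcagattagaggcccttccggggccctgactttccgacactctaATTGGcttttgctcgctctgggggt
Rbm46, chr3:82876484-82876633, - strand: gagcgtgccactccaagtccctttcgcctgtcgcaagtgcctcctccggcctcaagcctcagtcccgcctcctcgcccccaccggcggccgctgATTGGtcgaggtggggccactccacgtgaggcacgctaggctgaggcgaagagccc
Sf3a3, chr4:124714711-124714860, + strand: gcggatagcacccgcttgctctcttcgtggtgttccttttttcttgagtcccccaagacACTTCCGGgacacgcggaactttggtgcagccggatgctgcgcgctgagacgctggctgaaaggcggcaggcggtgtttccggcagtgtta
Snrpg, chr6:86371390-86371539, + strand: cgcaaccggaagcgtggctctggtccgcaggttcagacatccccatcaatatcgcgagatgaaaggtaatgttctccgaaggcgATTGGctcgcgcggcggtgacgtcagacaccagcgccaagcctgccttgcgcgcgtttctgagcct
The peak centre lay 133 bases before the start in Srsf3 and 138 bases before it in Rbm42. It lay 63 bases after the start in Hnrnpab, 49 after it in Snrpb2 and 26 after it in Rbm46. The peaks of Srsf3 and Rbm42 covered the whole stretch shown. Those of Hnrnpab, Snrpb2 and Rbm46 covered only the part next to the start, and the GC box marked in Hnrnpab lay outside its peak. Neither forkhead word searched (GTAAACA or GTCAAGG) occurred in any of the 7 stretches, which says only that these letters were not there. CpG dinucleotides numbered 11 to 17 in each of the stretches, those without a peak included.

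Most of the splicing genes carried a FOXL2 peak. Occupied genes were those with the centre of at least 1 peak inside them or up to 10 kb beyond their ends. This held for 83 of the 91 genes (91.2%, interval 83.4 to 96.1%), beside 49.6% of all protein-coding genes. The median number of peaks in the window was 1 among the splicing genes and 0 among all protein-coding genes. Of the occupied genes 56 had 1 peak, 26 had 2 and 1 had 3, so 29.7% of the 91 had several peaks (interval 20.5 to 40.2%), beside 14.8% of all protein-coding genes. The 111 gene-peak pairs came from 109 different peaks, because the neighbours Rbm4 and Rbm14, and Rbm5 and Rbm6, each shared 1. The choice of the families was made with occupancy results of these data known, and no test of the list was made.

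Peaks were then divided by where they lay. An own-border peak had its centre within 1 kb of either end of the gene, with no end of another protein-coding gene nearer. Own-border peaks were found in 59 of 91 genes (64.8%, interval 54.1 to 74.6%), beside 31.3% of all protein-coding genes. An internal peak lay inside the gene and over 1 kb from both ends. There were internal peaks in 13 genes (14.3%, interval 7.83 to 23.2%), beside 10.5% of all protein-coding genes. How this share compared with the background depended on the border zone, being 27.5% beside 15.4% with a zone of 500 bp and 6.59% beside 7.75% with one of 2000 bp. A further 13 genes (14.3%, interval 7.83 to 23.2%) were occupied only by other peaks, which lay at the end of another gene or 1 to 10 kb outside. This share was 10.7% over all protein-coding genes. No peak was found for 8 genes (8.79%), beside 50.4% of all protein-coding genes. Counting each peak only for the gene with the nearest border left 22 without a peak. The share occupied was then 75.8%, beside 38.9% of all protein-coding genes.

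**Figure D1:**
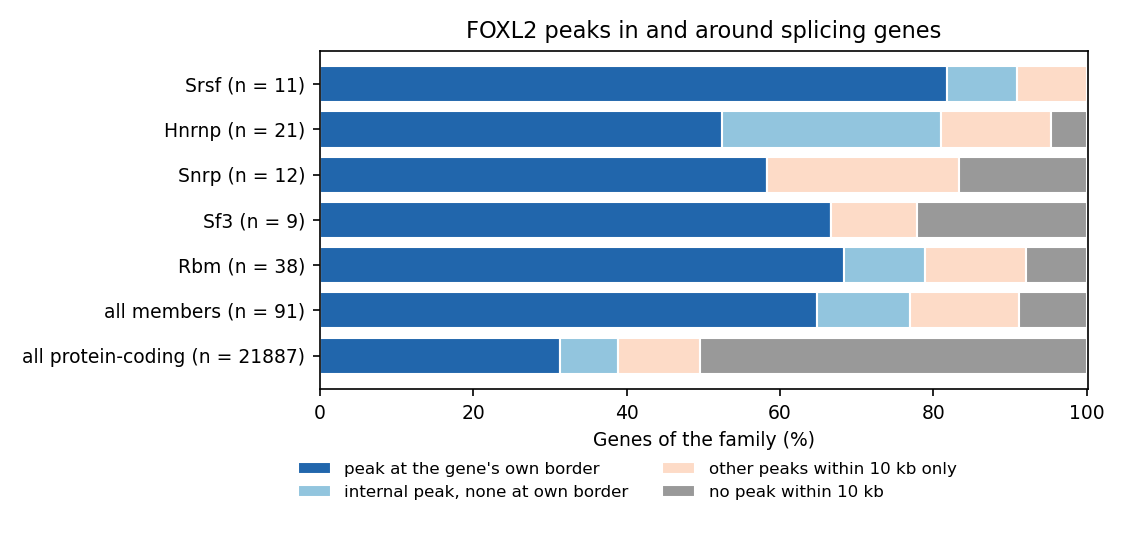
Share of genes (%) in each class of peak for the 5 families, all 91 members and all 21887 protein-coding genes; a gene is counted once, under own border first, then internal, then other peaks. The grey section without a peak is absent in Srsf and takes 50.4% of all protein-coding genes, and the internal section is widest in Hnrnp.

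By family, own-border peaks were found in 9 of 11 Srsf genes (81.8%, interval 48.2 to 97.7%), 26 of 38 Rbm genes (68.4%, 51.3 to 82.5%) and 6 of 9 Sf3 genes (66.7%, 29.9 to 92.5%). The shares were lower in Snrp, with 7 of 12 (58.3%, interval 27.7 to 84.8%), and in Hnrnp, with 11 of 21 (52.4%, 29.8 to 74.3%). These intervals overlap, and no difference between families was tested. Internal peaks were found in 6 of 21 Hnrnp genes (28.6%, interval 11.3 to 52.2%), 2 of 11 Srsf genes (18.2%, 2.28 to 51.8%) and 5 of 38 Rbm genes (13.2%, 4.41 to 28.1%). No Snrp or Sf3 gene had one, which allows shares of up to 26.5% and 33.6%. The unoccupied genes were 0 of 11 in Srsf (which allows up to 28.5%), 1 of 21 in Hnrnp, 2 of 12 in Snrp, 2 of 9 in Sf3 and 3 of 38 in Rbm. Those in Rbm include Rbm31y on chromosome Y, which XX gonads do not carry.

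The gene ends used above do not tell starts from stops of transcription. RefSeq listed a promoter, and with it a strand and a start, for 77 of the 91 genes, 13 of them with several starts. A peak centre lay within 1 kb of a listed start of the gene in 66 of these 77 (85.7%, interval 75.9 to 92.6%), beside 38.4% of the 17492 protein-coding genes with a listed start. The count included all 11 Srsf genes (interval 71.5 to 100%) and 18 of 19 Hnrnp genes (94.7%, 74 to 99.9%). It included 6 of 7 Sf3 genes (85.7%, interval 42.1 to 99.6%), 25 of 30 Rbm genes (83.3%, 65.3 to 94.4%) and 6 of 10 Snrp genes (60%, 26.2 to 87.8%). Hnrnp, lowest of the families by own-border peaks, was thus second by start peaks, and Snrp was last. The intervals of all families overlapped, those of the first and last included, and no difference was tested.

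Peaks sat mostly just after the start. Of 74 start peaks in these genes 55 (74.3%) had their centre downstream, at a median of 168 bp (quartiles -63.8 and 271 bp). Over all protein-coding genes 70.9% of 7318 such pairs lay downstream, with a median of 122 bp and quartiles of -54.8 and 257 bp. The fullest 100 bp interval was that from 100 to 200 bp downstream in both sets, with 23.0% and 21.7% of the pairs. The position of the start peaks therefore resembled that of other genes in these summaries, which were not tested against each other. Family medians were 215 bp in Srsf, 189 bp in Hnrnp, 150 bp in Sf3, 146 bp in Rbm and 76 bp in Snrp.

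**Figure D2:**
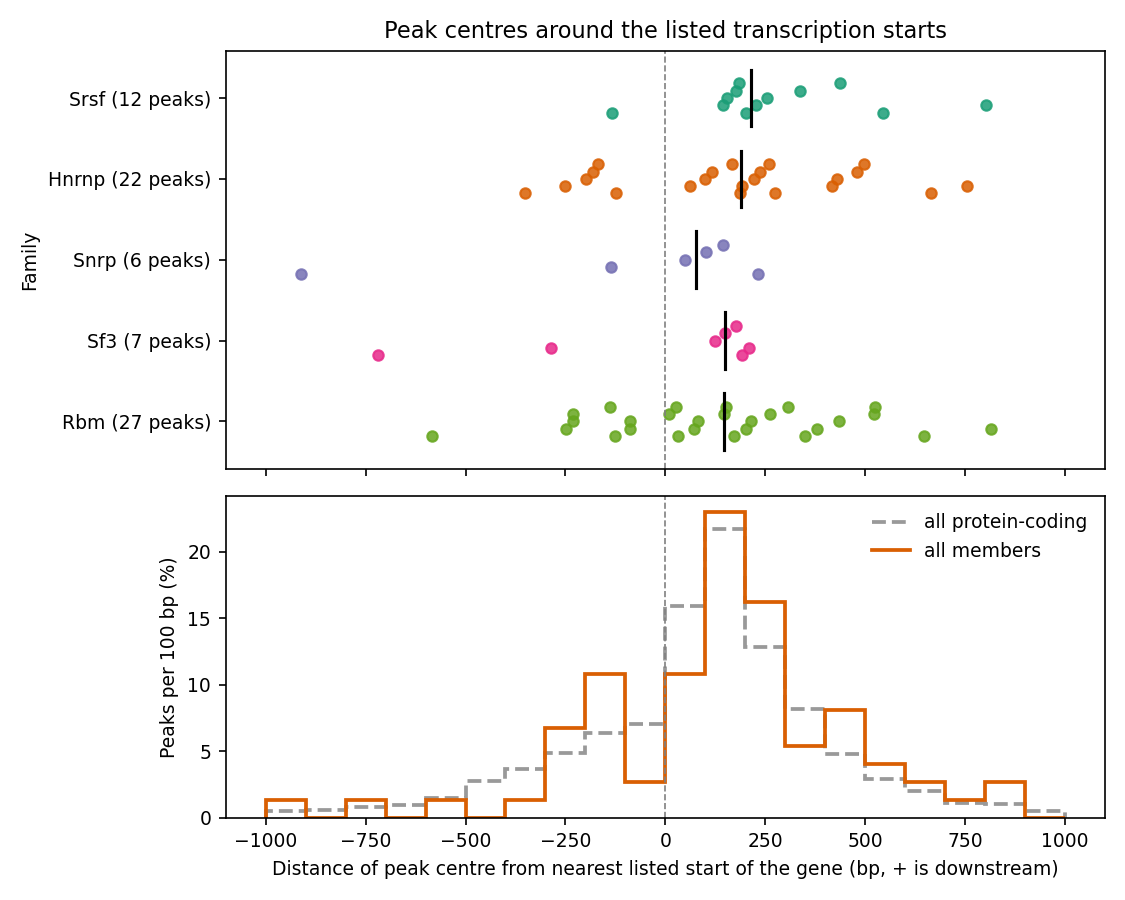
Upper panel, distance in bp of each start peak from the nearest listed start of its gene, by family, with positive values downstream, 1 point per gene-peak pair and a black bar at the family median. Lower panel, share of pairs per 100 bp (%) for the members (orange) and all protein-coding genes (grey, dashed); both are highest from 100 to 200 bp downstream.

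Of the 15 internal peaks, 14 belonged to genes with a listed start, and all 14 lay within 1 kb of one. Over all protein-coding genes this held for 1035 of 2209 such pairs (46.9%). The internal peaks of the splicing genes also lay nearer to a gene end, at a median of 1832 bp against 8231 bp over all protein-coding genes, and the part of this in the difference was not tested. In the 9 genes with internal peaks and a single listed start, 9 of 9 pairs were at that start. Of the 77 genes 9 (11.7%) had the gene end on the start side over 1 kb from every listed start, beside 9.95% of all protein-coding genes.

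Hnrnpf and Hnrnph1, close paralogues that bind runs of G, each had a pair of internal peaks at different listed starts. In Hnrnpf the peaks at chr6:117907050-117907349 and chr6:117916893-117917192 were 6859 and 8580 bp from the gene ends, but 417 bp after one start and 252 bp before another. In Hnrnph1 they lay 99 bp after one start and 169 bp before another, and 1832 and 2810 bp inside the gene. Hnrnpl, which binds CA repeats, had a peak 118 bp after its start and 2462 bp from its nearest end. Hnrnpul1 (221 bp after the start), Hnrnpk (274 bp) and Hnrnpu (664 bp), the scaffold attachment factor, followed the same pattern. The Srsf11 peak at chr3:158031345-158031644 was 5173 bp inside the gene and 254 bp after a start, and a further peak lay 238 bp inside the gene end, 177 bp after another start.

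Srsf1, the founding SR protein gene, had its only peak 803 bp after the start and 1677 bp inside the gene. Among Rbm genes, Rbm26, part of a nuclear RNA decay pathway, had a peak 73 bp after its start and 3798 bp from the gene end. Rbm48, a minor spliceosome factor, had one 201 bp after its start. Rbm15, an adaptor of the RNA methylation machinery, had peaks 584 bp before and 525 bp after its start. Rbm24, a muscle splicing regulator, was just past the 1 kb limit, with a peak 1014 bp inside the gene and 816 bp after the start. The internal peak without a listed start to set it against was that of Rbm20, the heart and muscle regulator of titin splicing, 16454 bp inside the gene at chr19:53677294-53677593.

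**Figure D3:**
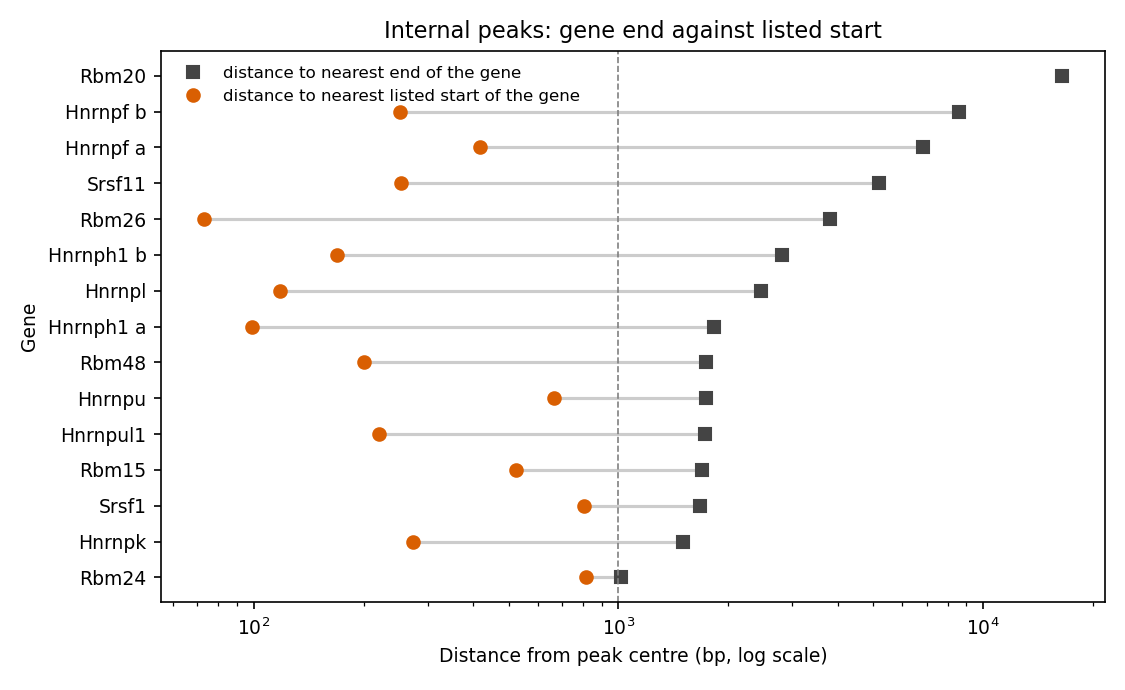
Distance in bp (log axis) of each of the 15 internal peaks from the nearest end of its gene (squares) and from the nearest listed start (circles; none listed for Rbm20), with a dashed line at 1000 bp; the letters a and b mark the pairs of peaks in Hnrnpf and Hnrnph1. All 14 circles lie left of the line, and all squares right of it.

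Among the SR protein genes, which bind exonic enhancers, the own-border peaks nearest to the gene end were those of Srsf3 (133 bp outside), Srsf6 (185 bp inside) and Srsf11. The farthest were those of Srsf10, a splicing repressor when dephosphorylated, at 865 bp inside, and Srsf5 at 442 bp inside. Srsf4, Srsf7, Srsf9 and Srsf12 had own-border peaks 242 to 425 bp inside. Srsf2 had no own-border peak, because the end of Mfsd11 was nearer to the peak 917 bp inside the gene. That peak lay 336 bp after the listed start of Srsf2, whose start faces that of Mfsd11 at a distance of 668 bp. Second peaks in the windows of Srsf2 (nearest to the end of Mettl23), Srsf9 (Gatc) and Srsf10 (Pnrc2) lay 3780 to 7251 bp outside these genes, each nearest to another gene.

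In the Hnrnp family, Hnrnpa3 had an own-border peak 27 bp outside the gene and another 651 bp inside. Hnrnpab likewise had a pair, 63 and 754 bp inside, and no other splicing gene had 2 own-border peaks. Hnrnpc, which binds U tracts, had a peak 184 bp inside the gene. Hnrnpa1, a well-studied splicing silencer, had the farthest, 933 bp inside the gene but 479 bp after a listed start. Hnrnpul2 had a peak 754 bp inside and another at Bscl2. Hnrnpa2b1, a paralogue of Hnrnpa1, had a peak 259 bp after a start and a second nearest to Cbx3, whose start faces that of Hnrnpa2b1.

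The own-border peaks of Hnrnpa0 (350 bp outside), Hnrnph2, Hnrnph3, Hnrnpm and Hnrnpr lay 192 to 458 bp from the gene end. Hnrnph2 on chromosome X also had a peak 5535 bp outside. Hnrnpd and Hnrnpdl, neighbouring paralogues that bind AU-rich RNA, lacked an own-border peak because ends of 4930524J08Rik and Enoph1 were nearer. Their peaks lay 237 bp after and 124 bp before their own starts. The peak of Hnrnpll, 485 bp inside the gene, was nearer to the end of 4933407O12Rik. The second peaks of Hnrnpk and Hnrnpu were nearest to 2210016F16Rik and Cox20. The unoccupied gene was Hnrnpa1l2-ps2, a copy of the Hnrnpa1 type whose symbol marks a pseudogene although RefSeq types it as coding, with the nearest peak 2650 kb away.

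The 7 Sm ring genes did not all carry a peak. Snrpb, Snrpd1, Snrpe and Snrpf had an own-border peak 46 to 163 bp inside the gene. The peak of Snrpd3 lay 912 bp before its start and nearest to Gucd1, whose start faces that of Snrpd3 at 70 bp. The peak counted for Snrpg was 5712 bp outside, nearest to Fam136a, and Snrpd2 had none, the nearest being 17.8 kb away. Snrpn, an imprinted paralogue of Snrpb that is used mainly in neurons, had none either, with the nearest peak 753 kb from a gene annotated over 467683 bp.

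Of the U1 and U2 genes, Snrpa (233 bp inside) and Snrpc (78 bp outside), which encode U1 proteins, had own-border peaks, as did Snrpb2 of U2 (49 bp inside). Snrpa1, the partner of Snrpb2 in U2, had only a peak 5083 bp outside at Selenos. The second peaks of Snrpa, Snrpc and Snrpd1 were nearest to Rab4b, Uhrf1bp1 and Esco1.

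In the SF3 complexes, Sf3b1, whose protein clasps the branch point, was bound 215 bp inside the gene, 192 bp after a start. Sf3a1 (150 bp inside), Sf3a2 (176 bp) and Sf3b2 (211 bp) had own-border peaks of like position, and each had a second peak at another gene, Tbc1d10a, Plekhj1 and Pacs1. Sf3b4 and Sf3b6 had theirs outside, at 307 and 287 bp. The Sf3b3 peak lay 124 bp after its start but nearer to the start of Cog4, which faces it at 221 bp. Sf3a3, of SF3a, and Sf3b5, a small subunit with a gene of 734 bp, were without a peak, at 14 and 85.5 kb from the nearest.

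The Rbm genes span many roles, and their own-border peaks lay 55 to 685 bp from the gene end. The nearest were those of Rbm46 (55 bp inside), Rbm10 (57 bp) and Rbm4b (82 bp). Rbm46 is a gene of germ cells, whose protein is needed for meiosis, and its peak centre lay 26 bp after a listed start at chr3:82876308-82876607. Rbm44, another germ cell gene, had only a peak 9249 bp outside, at the end of Ramp1. Rbm31y had no peak, but it lies on chromosome Y, which XX gonads do not carry, so this absence says nothing about binding. The nearest peak listed on that chromosome lay 73332 kb away, at chrY:90734404-90734703. How a peak came to be placed on chromosome Y in XX gonads was not examined. The farthest own-border peaks were those of Rbm6 (685 bp inside) and Rbm15b (648 bp), a relative of Rbm15.

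Rbm10, an X-linked regulator of exon skipping, had the most peaks of all 91 genes, with 3. They lay 89 bp before its start, 523 bp after it and nearest to Ndufb11, and at Uba1. Rbm5 and Rbm6, neighbours on chromosome 9 and relatives of Rbm10, each had an own-border peak, at 215 and 146 bp after a start. The Rbm5 peak also fell in the window of Rbm6. On chromosome 19, Rbm4, Rbm4b and Rbm14 lie in a row, and peaks were centred 33 and 9 bp after starts of Rbm4 and Rbm4b and 125 bp before that of Rbm14. The peak of Rbm4 also fell in the window of Rbm14.

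Genes of the core machinery in this class included Rbm8a, of the exon junction complex, with a peak 106 bp inside, and Rbm17, with a peak 262 bp inside. Rbm22, Rbm25 and Rbm42 had own-border peaks at 103, 143 and 138 bp. That of Rbm25 lay 3359 bp before its single listed start. It was the only own-border peak of the 53 in genes with a listed start that was not within 1 kb of one. Rbm39, a splicing coactivator, had a peak 248 bp before a start and another nearest to Nfs1, and Rbm15b a second at Manf. Rbm7, of a nuclear RNA decay complex, had a peak 230 bp before its start, nearer to Gm5617.

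The own-border peaks of Rbm3, a cold-induced gene (518 bp inside), Rbm12, Rbm18, Rbm19, Rbm27, Rbm33, Rbm38, Rbm41, Rbm43, Rbm45 and Rbm47 lay 83 to 596 bp inside the gene. Rbm28, which acts in ribosome assembly, had only a peak 5780 bp outside. Rbm34 had one 1271 bp outside, at Tomm20, and Rbm12b2 one 1576 bp outside. The neighbouring paralogue Rbm12b1 was without a peak, the nearest being 22.7 kb away. So was Rbm11, a splicing regulator of brain and testis, at 770 kb.

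Several of these assignments involved starts that face each other. In 14 of the 77 genes with a listed start (18.2%), the start of another protein-coding gene on the opposite strand lay up to 1 kb upstream, beside 8.48% of all protein-coding genes with a listed start. All 14 had a start peak, as did 52 of the other 63 (82.5%). Over all protein-coding genes the shares were 72.8% with such a partner and 35.2% without. In 6 of the 74 start peaks the start of another gene was nearer, namely in Hnrnpd, Rbm7, Rbm10, Sf3a2, Sf3b3 and Snrpd3. The list does not tell which gene of such a pair a peak belongs to. Of the 13 genes occupied only by other peaks, 10 had a listed start and 6 of these had a peak within 1 kb of it.

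The promoters of these genes were rich in CpG. The CpG count of the 300-base window from 250 bases before to 50 after the start, taken as the highest where a gene has several, had a median of 24 in the 77 genes, beside 15 over all protein-coding genes. By family it was 32 in Srsf and in Hnrnp, 23 in Sf3, 21 in Rbm and 20 in Snrp. Over all protein-coding genes, the share with a start peak rose over 4 classes of this count, from 1.18% at 0 to 4 CpG to 25.3% at 5 to 15, 59.5% at 16 to 25 and 72.8% at 26 to 67. Of the splicing genes 66 of 77 lay in the upper pair of classes. Start peaks were found there in 30 of 34 (88.2%, interval 72.5 to 96.7%) and 31 of 32 (96.9%, 83.8 to 99.9%), and in the lower pair in 1 of 3 and 4 of 8. The part of CpG content in the occupancy was not tested.

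**Figure D4:**
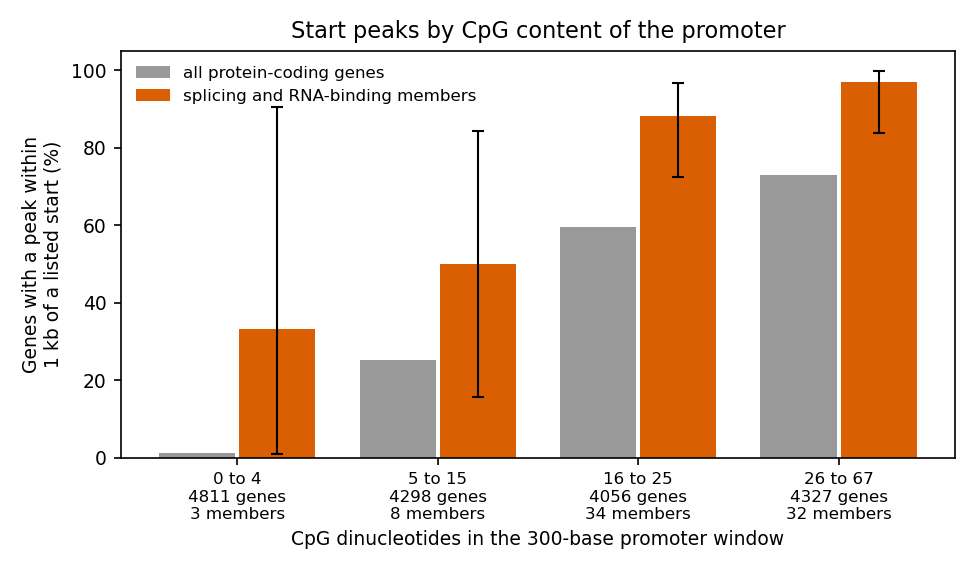
Share of genes (%) with a peak within 1 kb of a listed start, by class of the CpG count of the promoter window, for all protein-coding genes (grey) and the members (orange, with exact 95% intervals). The members reach 88.2% and 96.9% in the upper classes, against 59.5% and 72.8%, and the lower classes hold only 3 and 8 members.

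The 11 genes with a listed start and no peak at it were of both kinds. Hnrnpa1l2-ps2 (3 CpG), Rbm25 (0), Rbm28 (13), Rbm31y (9), Snrpa1 (7) and Snrpn (7) lay in the lower classes. The count for Rbm25 is that of its listed start, 3359 bp from its own-border peak, and does not describe the bound gene end. Rbm31y lies on chromosome Y, which XX gonads do not carry, so its lack of a peak says nothing about binding. Rbm11 (25 CpG), Rbm34 (18), Sf3a3 (22), Snrpd2 (20) and Snrpg (26) lay in the upper ones. Rbm41, in turn, had a start peak with 4 CpG.

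Words bound by known factors were counted in the 300-base windows on both strands, over 99 promoters of these genes and 21263 of all protein-coding genes. The forkhead core GTAAACA occurred in 4 (4.04%), those of Rbm10, Rbm42, Snrpf and Srsf6, beside 3.01% of all promoters. The core of the FOXL2 response element, GTCAAGG, occurred in 1 (1.01%), that of Rbm4b, beside 3.09%. The ETS core ACTTCCGG was found in 12 (12.1% beside 5.15%), in 10 genes among which were Srsf4, Srsf5, Srsf11, Sf3a1, Sf3b2 and the unoccupied Sf3a3. The YY1 word AAGATGGCG (2.02% beside 1.83%) and the NRF1 site (1.01% beside 1.33%) were rare. The GC box GGGCGG was found in 58.6% beside 46.2% and ATTGG in 43.4% beside 38.2%. Over the 8685 promoters of protein-coding genes with a start peak, the GC box occurred in 67.0%, ATTGG in 36.6%, the ETS core in 8.65% and GTAAACA in 2.74%. These windows lie mostly before the start, whereas the start peaks of the splicing genes were centred at a median of 168 bp after it. Their quartiles were -63.8 and 271 bp, and the median over all protein-coding genes was 122 bp. Much of the sequence under the peaks was therefore not searched, and the shares do not give its content of these words. No searched word contains another, and the counts are descriptions of these windows, without a test.

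Other genes of RNA processing, in 6 lists made for comparison with earlier results of these data known, gave a range of values. Own-border peaks were found in 9 of 11 genes listed as SR protein kinases (81.8%, interval 48.2 to 97.7%), all of the 11 being occupied. They were found in 24 of 30 FET and other nuclear RNA-binding protein genes (80%, 61.4 to 92.3%) and in 45 of 60 other spliceosome subunits (75%, 62.1 to 85.3%). The shares were 8 of 14 for exon junction and nonsense-mediated decay genes (57.1%, interval 28.9 to 82.3%) and 11 of 20 for germ cell RNA-binding proteins (55%, 31.5 to 76.9%). Splicing regulators listed as tissue-restricted had 9 of 28 (32.1%, interval 15.9 to 52.4%), next to the 31.3% of all protein-coding genes. That label was not checked gene by gene, and peak positions cannot check it. They had internal peaks in 10 of 28 (35.7%, interval 18.6 to 55.9%), beside 10.5% of all protein-coding genes. Their other shares lay further from the background. They were occupied in 20 of 28 (71.4%, interval 51.3 to 86.8%), beside 49.6%, and 11 of 21 had a start peak (52.4%), beside 38.4%. These were the lowest such shares of the 6 lists, which ranged up to 100% occupied and 95.8% with a start peak. Other spliceosome subunits had 88.3% and 85.4%.

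Among the spliceosome subunits the most peaks were counted for Srrm2 (6), Ddx39b (4), Phf5a and U2af2 (3 each), and 7 of 60, among them Crnkl1, Lsm4, Lsm7 and Prpf38a, had none. Of the kinases, Dyrk1a had 3 peaks and Srpk1, Cdk12 and Cdk13 had 2 each. In the tissue-restricted list Nova1, Mbnl2 and Celf2 had 3 peaks and Khdrbs1 had 2, and 8 of 28, such as Celf5, Elavl2, Elavl3 and Esrp2, had none. Rbmxl2, Nanos3, Nanos1 and Ddx4 had 2 peaks each in the germ cell list, where Nanos2, Ybx2 and Zar1 had none. In the nuclear list Npm1, Tia1, Matr3 and Sfpq had 3 and only Cirbp had none. Smg1 had 2 peaks and Smg8, Eif4a3 and Upf3a had 1 each among the decay genes, where Magoh and Magohb had none.

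**Figure D5:**
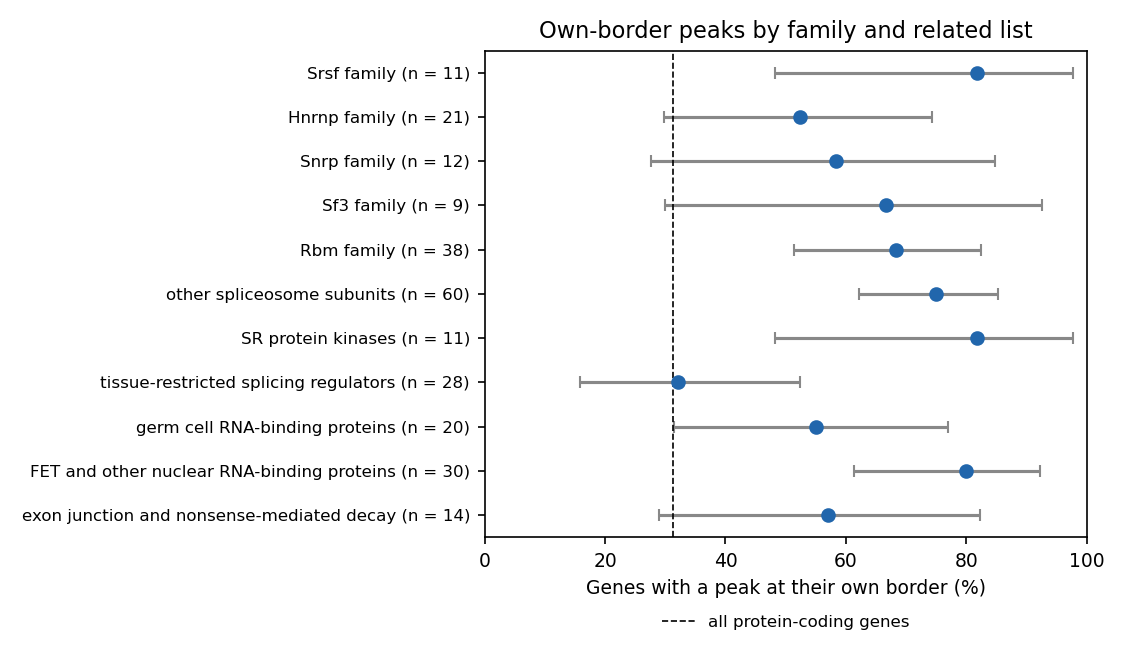
Share of genes (%) with an own-border peak in the 5 families and the 6 related lists, with exact 95% binomial intervals; the dashed line is the 31.3% of all protein-coding genes. The tissue-restricted regulators lie next to the line at 32.1%, and the points of the other families and lists lie between 52.4% and 81.8%.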

How the data were processed

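FOXL2 ChIP-seq positions from 2 ChIP samples were analysed; the 2 inputs have no file of their own here. Groups came from the sample titles. Per the submitters' processing notes, Bowtie 1.2, Picard 1.110, bedtools 2.24.0, HOMER 4.9 and build mm10 were used; what each did, with which settings and threshold, and whether replicates were pooled, is not given in the sources used here. Each line deposited by the authors holds a start and an end in bp. Of 11438 peaks, 11435 on chromosomes 1 to 19, X and Y were used, and 3 on other scaffolds were left out.

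Peak centres were set against RefSeq genes of GRCm38.p6 and against the starts in its promoter table with Python 3.11.15 and pandas 2.3.3; exact intervals came from scipy 1.17.1. The assignment of peaks was tested on simulated peaks at long genes far from their neighbours. The rule on a nearer end of another gene was therefore not tested. The members and lists were chosen with earlier results of these data known. Genes named were all unoccupied members, those with 2 or more peaks or an internal peak, the nearest and farthest own-border peaks per family, members occupied only at another gene, those sharing a peak, and up to 4 genes with the most and 4 without peaks per related list. Other members are named for completeness. The comparisons with listed starts, facing starts and CpG content were added after the data were examined. Alternatives were the window, the border zone, peak edges, genes of all kinds, the nearest border, merging of peaks and leaving out neighbouring members. A few peaks in the windows of members are not reported here.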

Additional observations from a re-analysis of the deposited data

How the results depend on the processing

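Of 36 recomputed counts under the alternatives, 32 stayed within 1.5 times the reported count. The exceptions were the number of genes with an internal peak, which was 13 as reported, 25 with a border zone of 500 bp and 6 with one of 2000 bp, and the number without a peak, which was 8 as reported, 5 in a window of 50 kb and 22 when a peak counted only for the gene with the nearest border, a setting added after the data were examined for this count. With these border zones 15.4% and 7.75% of all protein-coding genes had an internal peak, beside 27.5% and 6.59% of the splicing genes. Some of the 32 could not change by definition. Own-border and internal counts do not depend on the window, and only own-border counts depend on the borders of genes of all kinds. The counts of genes with and without a peak are also complements. The tally is therefore no measure of robustness. Occupied genes numbered 69 to 86 and genes with an own-border peak 51 to 65 over the alternatives. The 69 came from the nearest border only (75.8% beside 38.9% of all protein-coding genes) and the 86 from the window of 50 kb (94.5% beside 67.5%). Own-border shares were 56% beside 26.8% with a border zone of 500 bp and 71.4% beside 33.7% with one of 2000 bp. Start zones of 500 and 2000 bp, added after the data were examined, gave 59 and 66 genes with a start peak and 10 and 14 internal peaks at a listed start. No paired analysis was possible because the peak list does not tell the replicates apart, and for the same reason no replicate could be left out. A stricter peak threshold could not be tried without scores. The depth is unknown, so weak binding at the genes listed as unoccupied is possible, except at Rbm31y on chromosome Y, which XX gonads do not carry.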
